A study of Mus musculus with 6 samples.

Results

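Heat shock chaperones are described here across the cells of the mouse aorta. The 10 genes are Hspa1a, Hspa1b, Hsph1, Dnajb1, Dnaja1, Hsp90aa1, Hspd1, Hspe1, Hspb1 and Cryab, of 55450 genes in the matrix. They were chosen by symbol, with the wide spread of Hspa1b between libraries already known, so that spread is given as a description and not as a finding. The tissue was minced and dissociated, and single cells were sequenced on the 10x Genomics droplet platform, which counts molecules by unique molecular identifiers (UMIs). The labels name 3 samples of genotype Best3SMKO and 3 of genotype Best3FL/FL, all from aortic tissue, and name no Cre line, strain, sex or age. Best3 encodes bestrophin 3, of a family of chloride channels, and FL/FL denotes a floxed allele carried on both chromosomes. The 6 libraries share 1 matrix, where a barcode suffix tells them apart but ties none to a sample. They are called libraries 1 to 6, no cell was given a genotype, and Best3SMKO was not compared with Best3FL/FL.

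Heat shock proteins keep other proteins folded. HSP70 proteins bind exposed hydrophobic stretches of a client, J-domain proteins deliver the client, exchange factors release it, and HSP90 takes over clients such as kinases and steroid receptors late in folding. Small heat shock proteins hold unfolding proteins without using ATP, and in muscle several of them are abundant and bind the cytoskeleton. Many of these genes are switched on by heat shock factor 1 (HSF1), which binds heat shock elements, inverted repeats of the unit GAA.

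The libraries held 7475 to 16269 barcodes and 51813179 to 96144873 UMIs, with a median depth of 4708 UMIs per barcode in library 5 and 6289.5 in library 2. After filters on genes and mitochondrial UMIs, called doublets were removed, 3.02% to 11.33% of the barcodes that passed, most in library 5. This left 50769 cells in 20 clusters. The genes described here took no part in the clustering. Markers named 16797 fibroblast-like, 12144 smooth muscle-like, 8370 endothelial cell-like, 3293 macrophage-like, 1745 Schwann cell-like and 1538 lymphatic endothelial cell-like cells, beside smaller classes. Smooth muscle markers summed to between 50891 and 58147 UMIs per 1000000 UMIs (CPM) in the smooth muscle-like cells of the 6 libraries. Of the B cell-like cells 431 of 500, and of the epithelial cell-like cells 290 of 378, came from library 5, so the pooled values of both classes describe mainly that library. Of 60454 barcode sequences, 414 occurred in more than 1 library. Best3 had 26 UMIs in all barcodes together.

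Levels below are the UMIs of a gene per 1000000 UMIs of a class, and orders of classes are over the named classes of at least 200 cells. Exact 95% Poisson intervals cover counting error only, and in the larger classes they are far narrower than the spread between libraries. Hspb1 in smooth muscle-like cells, for example, had 5341 CPM with an interval of 5328 to 5354 CPM, while its libraries lay between 4536 and 6146 CPM. Levels of different genes are not compared with each other, apart from Hspa1a and Hspa1b, whose lengths are close.

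**Figure D1:**
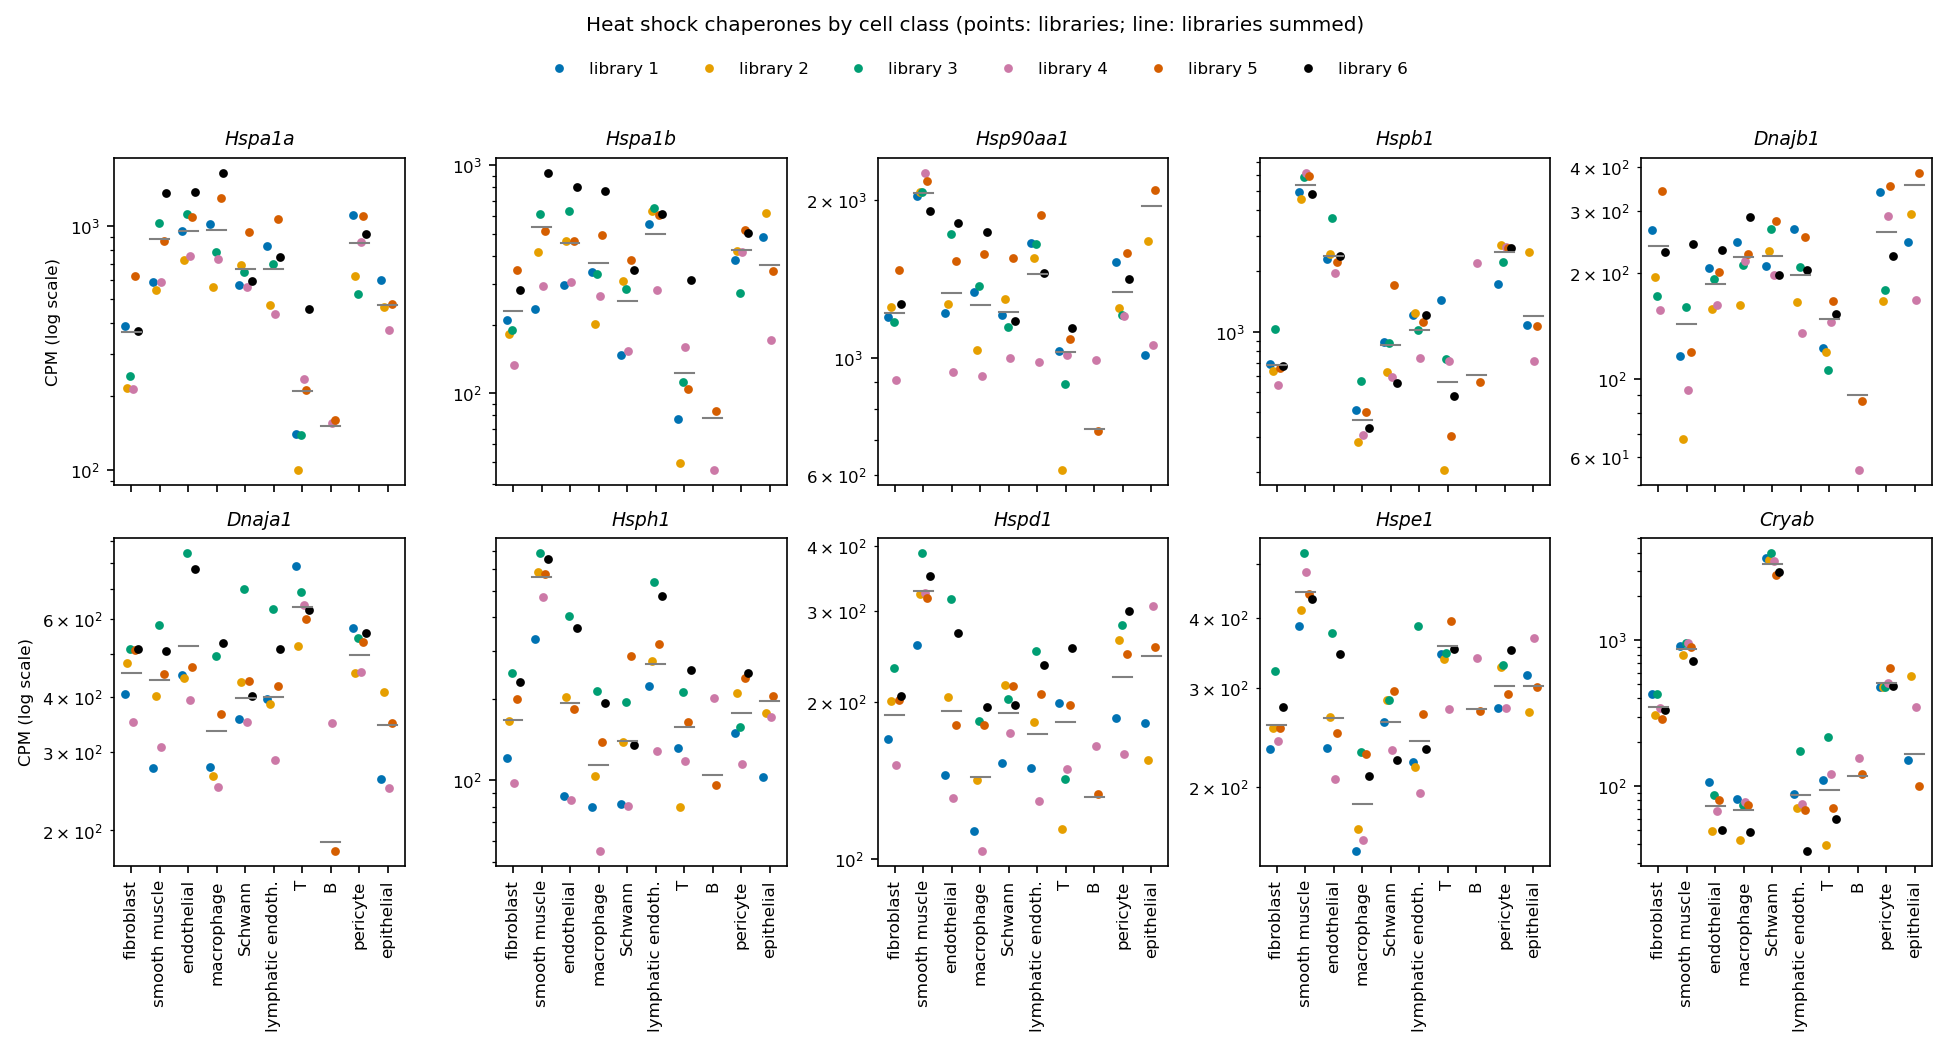
Levels of the 10 chaperone genes (CPM, log scale) by cell class, with a point for every library that had 20 cells or more of that class and a grey line for the libraries summed. Cryab stands highest in Schwann cell-like cells (3358 CPM), and Hspb1 (5341 CPM) and Hsph1 (562 CPM) in smooth muscle-like cells.

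Hspa1a and Hspa1b encode the stress-inducible HSP70 proteins and lie side by side on chromosome 17 (GRCm38), both on the minus strand, with 9951 bases between them. Hspa1a (ENSMUSG00000091971) spans chr17:34969190-34972156 and overlaps the gene Gm20481 on the opposite strand. Hspa1b (ENSMUSG00000090877) spans chr17:34956436-34959238. Their coding sequences are 99.4% identical over the alignment, while the transcripts after the coding sequence are 48.1% identical, so reads from inside the coding sequence may fit both genes, and the split of UMIs between them is uncertain to that extent. The 250 bases before the 2 starts are shown because 247 of them are identical, the heat shock element included. Capitals mark 2 GAA units in inverted order (GAANNTTC or TTCNNGAA), which begin 104 bases before either start. Sequences are from RefSeq on GRCm38.p6, 5′ to 3′ on the gene's strand.
Hspa1a, chr17:34972157-34972406, minus strand: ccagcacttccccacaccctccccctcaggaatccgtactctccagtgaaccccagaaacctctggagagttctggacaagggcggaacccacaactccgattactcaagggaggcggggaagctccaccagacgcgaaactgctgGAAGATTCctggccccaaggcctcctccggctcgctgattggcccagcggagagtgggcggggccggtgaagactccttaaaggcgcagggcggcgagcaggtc
Hspa1b, chr17:34959239-34959488, minus strand: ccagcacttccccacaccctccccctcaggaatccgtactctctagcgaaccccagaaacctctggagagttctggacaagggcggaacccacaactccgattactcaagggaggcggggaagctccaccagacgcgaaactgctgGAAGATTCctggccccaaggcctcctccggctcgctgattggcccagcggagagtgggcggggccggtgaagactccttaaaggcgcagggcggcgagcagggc

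Hspa1a was high in macrophage-like, endothelial cell-like and smooth muscle-like cells and low in T cell-like and B cell-like cells. Macrophage-like cells had 962 CPM of it, endothelial cell-like cells 950 CPM and smooth muscle-like cells 886 CPM. Fibroblast-like cells had 369 CPM, T cell-like cells 211.5 CPM and B cell-like cells 152 CPM. The 3 leading classes are not ordered by these data, because the macrophage class led in 2 of 6 libraries and the libraries of each class overlapped widely. In macrophage-like cells the lowest library had 565, the median was 901 and the highest 1652 CPM, and in endothelial cell-like cells these were 727, 1020 and 1385 CPM.

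Hspa1b was highest in smooth muscle-like cells. It had 537 CPM there, and the lymphatic endothelial class had 501, the endothelial class 457 and the macrophage class 372 CPM. In fibroblast-like, T cell-like and B cell-like cells it had 230, 122 and 77.7 CPM. The smooth muscle class led in only 1 of 6 libraries, so the first place does not hold library by library. The highest class exceeded the lowest 6.91 times for Hspa1b and 6.33 times for Hspa1a.

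Within smooth muscle-like cells, Hspa1b had 235, 415, 614, 294, 514 and 925 CPM in libraries 1 to 6. Hspa1a had 589, 546, 1033, 590, 867 and 1362 CPM there. Both genes were highest in library 6 and next highest in library 3, and libraries 1, 2 and 4 were low for both. The highest library exceeded the lowest 3.93 times for Hspa1b and 2.49 times for Hspa1a. Among 10359 genes with at least 50 UMIs in each library of this class, 0.57% had a wider ratio than Hspa1b and 2.37% a wider ratio than Hspa1a.

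The order of libraries changed with the class. In fibroblast-like cells Hspa1a had 389, 216, 242, 215, 625 and 372 CPM in libraries 1 to 6, and library 5 was highest. That library held 942 of the 1129 cells of fibroblast-like cluster 11, led by Saa3 and C3, in which Hspa1a had 1048 CPM, against 257 and 363 CPM in the 2 main fibroblast-like clusters, although it stood above them in only 1 of the 3 libraries compared. Within those 2 clusters library 5 had 352 and 458 CPM, close to the 320 and 447 CPM of library 1. In macrophage-like cells Hspa1b had 339, 201, 333, 268, 493 and 773 CPM, with library 6 highest and library 2 lowest, and a ratio of 3.84. Groups here are the classes and unnamed clusters with at least 20 cells in every library and 50 UMIs of the gene in each. Hspa1b reached a ratio of 2 in 7 of 8 groups and Hspa1a in 8 of 10. In the classes where it was counted, 4.41% (endothelial cell-like) to 8.73% (lymphatic endothelial cell-like) of all genes did. Wide ratios were more common in unnamed cluster 8, where 26.2% of genes exceeded the 2.07 of Hsp90aa1. All groups share the same libraries, so they are not separate cases. Libraries 5 and 6 were the highest for Hspa1a in 4 groups each and library 1 in 2.

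**Figure D2:**
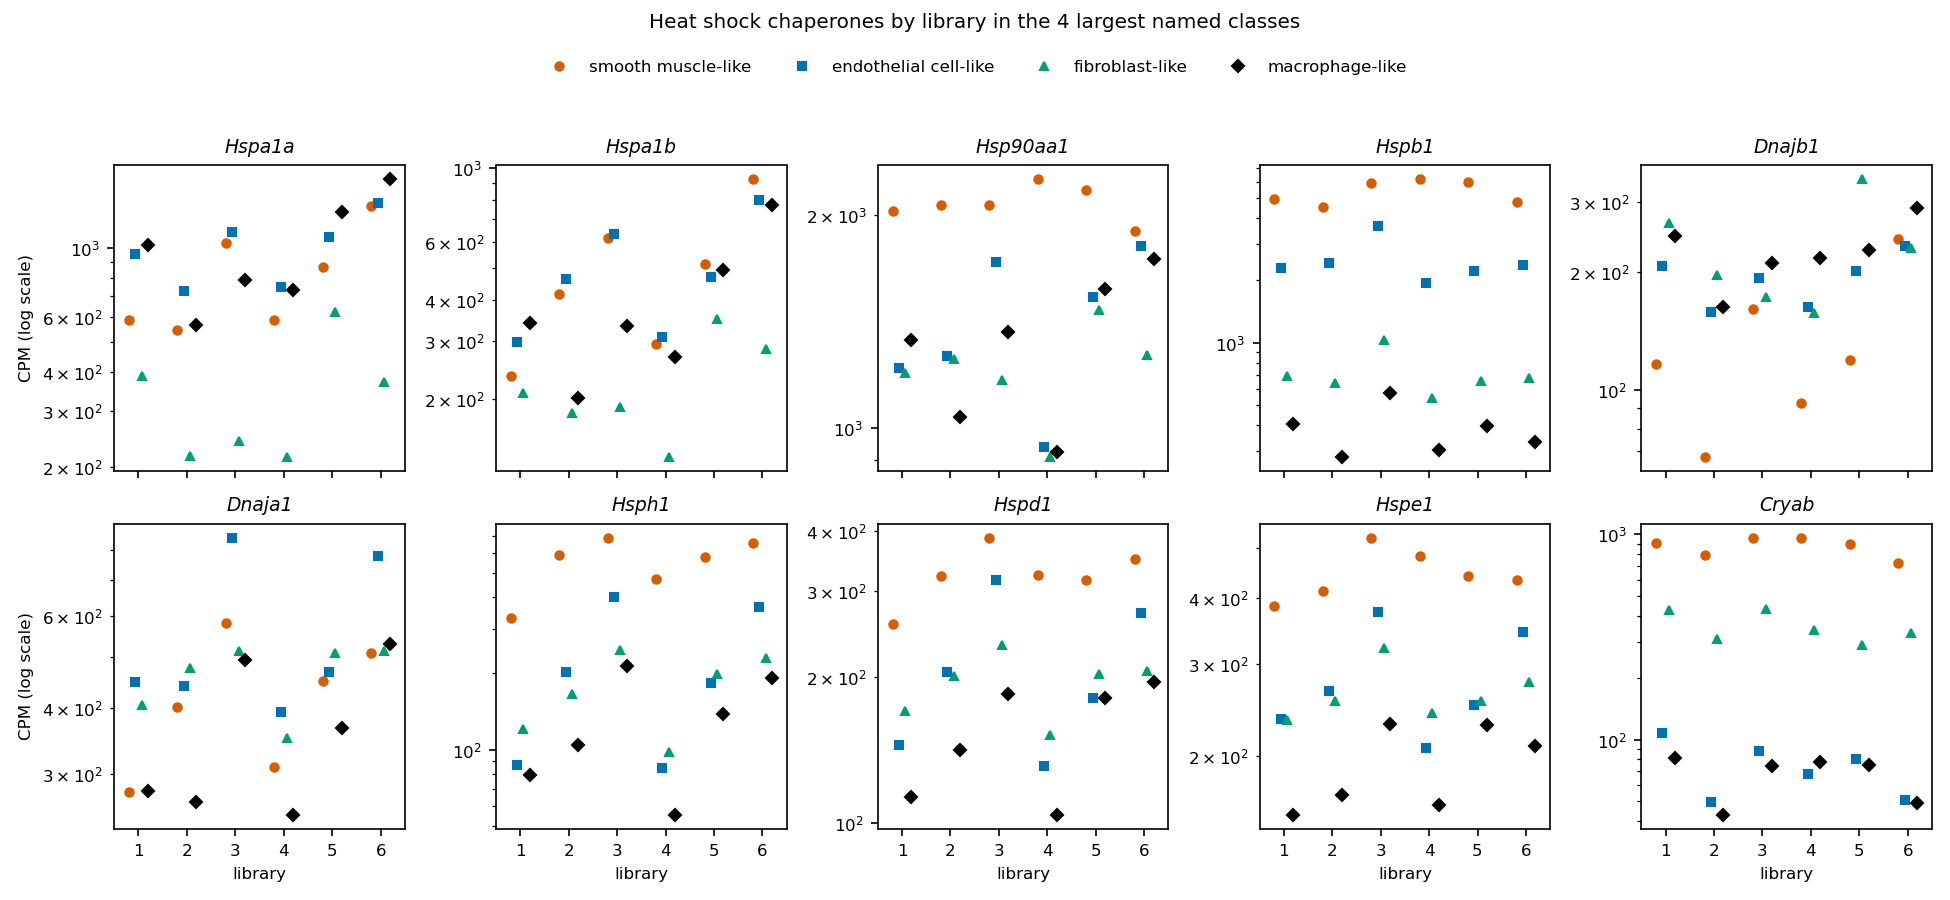
Levels of the 10 genes (CPM, log scale) in libraries 1 to 6, with a symbol for each of 4 large classes. In smooth muscle-like cells Hspa1b runs between 235 and 925 CPM and Hsp90aa1 only between 1902 and 2247 CPM.

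The proportion of the 2 HSP70 genes also varied. The gene spans 2967 bases for Hspa1a and 2803 bases for Hspa1b. In smooth muscle-like cells Hspa1a had 2.5, 1.32, 1.68, 2.0, 1.69 and 1.47 UMIs per UMI of Hspa1b in libraries 1 to 6. The counting intervals were 2.43 to 2.59 in library 1 and 1.28 to 1.36 in library 2. They take each UMI as independent and do not cover differences between cells. The same 2 libraries differed in the same direction in endothelial cell-like cells, with 3.19 in library 1 and 1.57 in library 2, in fibroblast-like cells, with 1.86 and 1.19, and in lymphatic endothelial cell-like cells, with 1.5 and 0.752. Library 2 of the lymphatic class, with 925 UMIs of Hspa1b and 696 of Hspa1a, is thus a case where Hspa1b was the more counted of the pair. Macrophage-like cells had 2.14 to 3.00, and libraries 1 and 2 were closer there, at 3.00 (2.78 to 3.23) and 2.81 (2.55 to 3.1).

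**Figure D3:**
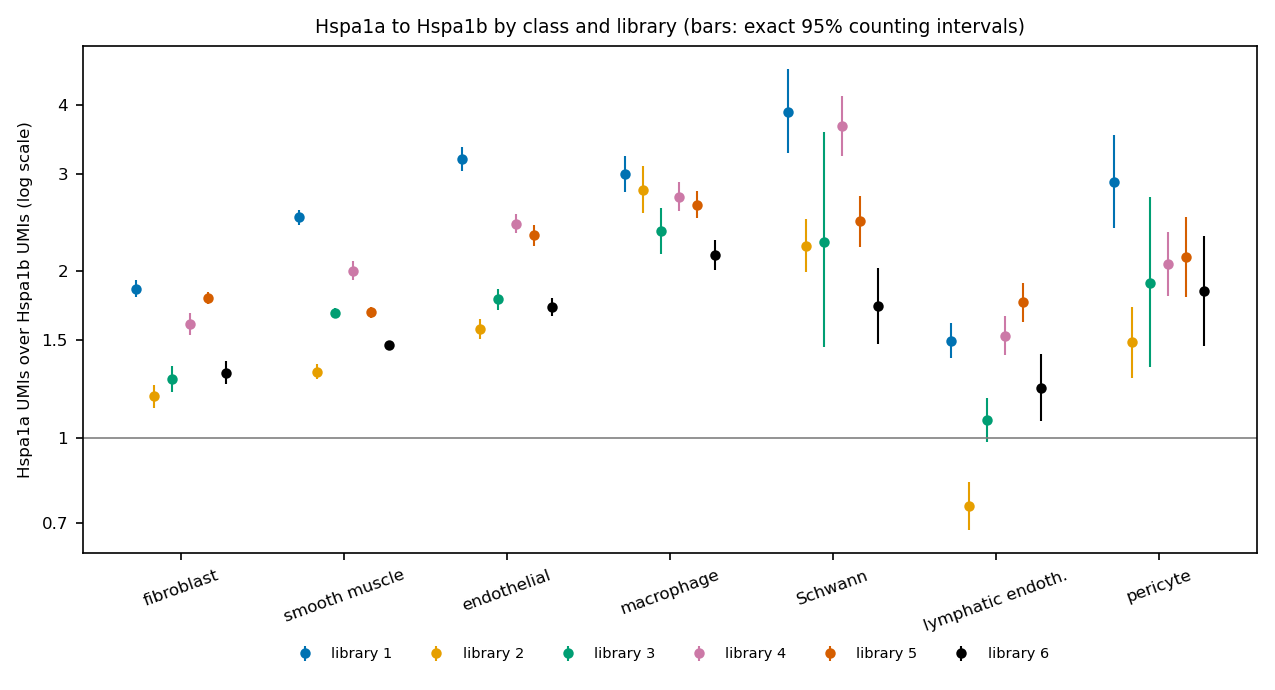
UMIs of Hspa1a over UMIs of Hspa1b (log scale) by cell class, a point for each library with its exact 95% counting interval. Library 1 stands above library 2 in smooth muscle-like cells (2.5 and 1.32) and in endothelial cell-like cells (3.19 and 1.57).

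Most smooth muscle-like cells carried a UMI of at least 1 of the pair. With each cell thinned to 2000 UMIs, which leaves out 7438 shallower cells of all classes, 71.5% of smooth muscle-like cells had a UMI of Hspa1a or Hspa1b, and 93.1% before thinning. The share was 62.4, 67.8, 72.2, 68.5, 74.1 and 79.0% in libraries 1 to 6. T cell-like and B cell-like cells had thinned shares of 28.1% and 27.2%, and since no class is known to lack these genes, the share that free RNA gives could not be set. The UMIs were unevenly held: the 10% of smooth muscle-like cells with the most had 46.1% of the Hspa1a and Hspa1b UMIs of the class.

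Endothelial cell-like cells differed among themselves. Cluster 3, led by Gpihbp1, Rbp7, Cd36 and Fabp4, genes of capillary endothelium and fatty acid uptake, had 1654 CPM of Hspa1a. Cluster 5, led by Ptprb, Cytl1 and Gkn3, had 654 CPM, and cluster 6, led by Lrg1, Selp and Vwf, had 314 CPM. Cluster 3 was above both others in 6 of 6 libraries, by 2.53 and 5.26 times in the pooled sums. Hspa1b ran in the same order with 731, 337 and 215 CPM. The library ranges of Hspa1a in clusters 3 (1298 to 2255 CPM) and 6 (215.5 to 491 CPM) did not overlap.

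Hsph1 (chr5:149614287-149636376, minus strand) encodes HSP110, which acts as an exchange factor for HSP70. It was higher in smooth muscle-like cells, at 562 CPM, than in any other class, and the lymphatic endothelial class followed with 269, the epithelial class with 197 and the endothelial class with 192 CPM. The lowest levels were 113.5 CPM in the macrophage class and 105 CPM in the B cell class. The smooth muscle class was first in 6 of 6 libraries, by 2.09 times over the next class in the pooled sums.

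Between libraries, Hsph1 was the most variable gene of the 10 in endothelial cell-like cells. It had 87.2, 203, 402, 85.0, 183 and 365 CPM in libraries 1 to 6 of that class, a ratio of 4.73. The smooth muscle class had 332, 586, 688, 473, 578 and 657 CPM, a ratio of 2.07. Libraries 1 and 4 were low and library 3 high in both. Library 3 was the highest in 5 of 6 groups tested, and library 4 or 1 the lowest in all 6 (in 4 and 2 of them). The widest ratio within 1 cluster was in endothelial cell-like cluster 3, from 104 CPM in library 1 to 668 CPM in library 3, or 6.44 times. The thinned share of smooth muscle-like cells with an Hsph1 UMI ran from 39.0% in library 1 to 64.5% in library 3 (78.7% and 94.1% before thinning). The window before 1 of the starts of Hsph1 (chr5:149636337-149636586, minus strand) is shown for its element, which has TTC as its first unit. The element begins 33 bases before that start and 54 bases before another, and the window overlaps the annotated span of Hsph1.
Hsph1: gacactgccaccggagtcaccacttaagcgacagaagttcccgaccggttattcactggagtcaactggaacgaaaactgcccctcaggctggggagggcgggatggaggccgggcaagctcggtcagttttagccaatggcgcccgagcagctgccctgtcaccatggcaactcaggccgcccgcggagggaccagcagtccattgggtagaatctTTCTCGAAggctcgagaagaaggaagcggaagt

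Dnajb1 (chr8:83608193-83612653, plus strand) and Dnaja1 (chr4:40722150-40737149, plus strand) encode J-domain proteins that hand clients to HSP70. Dnajb1, one of the J-domain genes induced by heat, had a class order unlike that of Hspa1a and Hspa1b, with smooth muscle near the bottom. The epithelial class had 357, the pericyte class 261 and the fibroblast class 239 CPM, but the smooth muscle class 143 and the B cell class 90.5 CPM. After thinning, a Dnajb1 UMI was present in 19.7% of smooth muscle-like and 32.3% of fibroblast-like cells (55.1% and 57.7% before thinning). Its smooth muscle libraries nevertheless spread nearly as widely as those of Hspa1b, with 116, 67.8, 160, 93, 119 and 242 CPM, a ratio of 3.56. Library 6 was highest and library 2 lowest, and 0.753% of genes had a wider ratio. In endothelial cell-like cells the range was narrower, from 158 to 232 CPM.

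Dnaja1 had its highest level in T cell-like cells, 637 CPM, which led in 4 of 6 libraries, and 522 CPM in endothelial cell-like cells. Fibroblast-like and smooth muscle-like cells were close to each other with 454 and 436 CPM, and B cell-like cells lowest with 188 CPM. Libraries 1 to 6 of the smooth muscle class had 277, 402, 581, 309, 450 and 509 CPM, so library 3 was highest and library 1 lowest. Library 3 was the highest in 6 of the 10 groups tested and library 4 the lowest in 6. Dnaja1 shares its locus with Smu1, which lies on the opposite strand, and the sources used here do not give the strand setting of the counting.

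Hsp90aa1 (chr12:110690605-110702728, minus strand) encodes the inducible cytosolic HSP90. The smooth muscle class had 2061 CPM, the epithelial class 1945, the lymphatic endothelial class 1442 and the B cell class 732 CPM. The first place was held in 6 of 6 libraries, although the pooled epithelial class was exceeded only 1.06 times. Its libraries in smooth muscle-like cells were 2028, 2069, 2067, 2247, 2171 and 1902 CPM. That is the narrowest spread of the 10 genes in this class, 1.18 times, and 85.2% of all genes tested there had a wider one. In library 6, where Hspa1a, Hspa1b and Dnajb1 were highest, Hsp90aa1 was lowest. In endothelial cell-like cells it ranged wider, from 941 CPM in library 4 to 1807 CPM in library 6.

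Hspd1 and Hspe1 encode HSP60 and HSP10, which together form the mitochondrial chaperonin. They stand head to head on chromosome 1, Hspd1 on the minus strand (chr1:55077835-55088243) and Hspe1 on the plus strand (chr1:55088132-55091307). Where the annotated ends overlap, reads cannot be assigned without strand. Among the named classes of at least 200 cells the smooth muscle class led for both in every library, with 328 CPM of Hspd1 and 445 CPM of Hspe1. The lowest levels were 132 CPM of Hspd1 in the B cell class and 186 CPM of Hspe1 in the macrophage class. The 176 steroidogenic cell-like cells, outside that limit, had 354 CPM of Hspd1 and 597 CPM of Hspe1 in the pooled sums. Their medians over 4 libraries were lower, 222 and 404 CPM, where the smooth muscle class had medians of 324 and 437 CPM. These cells carried 43167 CPM of fibroblast markers and 1739 CPM of steroidogenic markers, so their name is uncertain. The library ratios in smooth muscle-like cells were 1.5 for Hspd1 and 1.35 for Hspe1, where 23.8% and 44.9% of genes had wider ones, and library 3 was highest and library 1 lowest for both. Hspe1 reached a ratio of 2 in 0 of the 9 groups tested, and library 3 was its highest library in 7 of them. Among the classes, Hspd1 varied most in endothelial cell-like cells, with 145, 205, 317, 131, 181 and 271 CPM in libraries 1 to 6. The window before Hspe1 (chr1:55087898-55088147, plus strand) is shown because it lies inside the annotated span of Hspd1, next to the RefSeq start of Hspe1, and holds 3 overlapping matches in a row, which is why a run of units is in capitals. A window before 1 of the starts of Hspd1 holds the same run on the other strand.
Hspe1: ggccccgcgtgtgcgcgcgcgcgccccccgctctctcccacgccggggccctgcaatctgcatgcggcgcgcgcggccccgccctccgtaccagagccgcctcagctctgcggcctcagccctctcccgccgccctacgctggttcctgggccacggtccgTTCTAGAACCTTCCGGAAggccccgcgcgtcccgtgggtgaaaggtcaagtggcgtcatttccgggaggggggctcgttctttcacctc

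Hspb1 and Cryab encode the small heat shock proteins HSP25 (HSP27 in humans) and alpha B-crystallin, both known to bind actin or intermediate filaments in muscle. Hspb1 (chr5:135887919-135889563, plus strand) had 5341 CPM in smooth muscle-like cells, and the pericyte class had 2491 and the endothelial class 2383 CPM. The fibroblast class had 682 CPM and the macrophage class 365 CPM, the lowest level, which the highest class exceeded 14.6 times. A UMI was present in 97.5% of thinned smooth muscle-like cells, and in 90.3% of the endothelial and 45.4% of the macrophage class, where the shares before thinning were 99.3%, 94.7% and 73.8%. By level, the smooth muscle and endothelial classes both stood above the fibroblast and macrophage classes in every library.

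The smooth muscle libraries of Hspb1 lay between 4536 and 6146 CPM, a ratio of 1.36. In macrophage-like cells it had 405, 282, 571, 305, 397 and 332 CPM, highest in library 3 and lowest in library 2. Smooth muscle markers, which macrophages should lack, summed to 3257, 1611, 3864, 2093, 3138 and 2860 CPM in the same cells, and were also highest in library 3 and lowest in library 2. Their part in the Hspb1 values of macrophage-like cells was not tested. In fibroblast-like cells Hspb1 was also highest in library 3, at 1031 CPM, where smooth muscle markers reached 3397 CPM, their highest sum in that class. Hspb1 was lowest there in library 4 (545 CPM) and the markers in library 2 (1288 CPM). In endothelial cell-like cells Hspb1 was highest in library 3 (3651 CPM) and lowest in library 4 (1949 CPM). The markers were highest there in library 1 (3674 CPM) and lowest in library 2 (2023 CPM). Among endothelial cell-like cells, Hspb1 had 3516 CPM in cluster 3, 2125 CPM in cluster 6 and 1264 CPM in cluster 5, an order unlike that of Hspa1a, which was lowest in cluster 6. The window before Hspb1 (chr5:135887669-135887918, plus strand) is shown for its 2 separate matches, which begin 117 and 97 bases before the start.
Hspb1: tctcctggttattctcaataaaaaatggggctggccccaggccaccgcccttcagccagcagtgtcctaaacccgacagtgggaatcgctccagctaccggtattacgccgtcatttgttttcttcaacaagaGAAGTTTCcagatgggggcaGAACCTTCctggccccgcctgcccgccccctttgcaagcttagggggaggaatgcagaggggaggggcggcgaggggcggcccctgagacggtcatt

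Cryab (chr9:50751325-50756636, plus strand) was highest in Schwann cell-like cells. It had 3358 CPM there, and the smooth muscle class had 866, the pericyte class 514 and the fibroblast class 349 CPM. The endothelial and macrophage classes had 73.0 and 69 CPM, so that the highest class exceeded the lowest 48.7 times, the widest range of the 10 genes. Schwann cell-like cells led in 6 of 6 libraries, with 3673, 3566, 3968, 3492, 2792 and 2948 CPM. Library 3 holds only 31 cells of this class. Thinned shares were 96.4% in Schwann cell-like, 73.3% in smooth muscle-like and 45.2% in fibroblast-like cells. The shares of 11.5% in endothelial cell-like and 11.4% in macrophage-like cells, classes of low level, are taken as background. That choice rests on the low levels themselves, and free RNA was not measured. Before thinning these 5 shares were 96.7, 95.3, 74.3, 25.01 and 25.7%. Median depths before thinning were 3150, 10693, 6427, 4318 and 5121 UMIs in these 5 classes. Cryab overlaps Hspb2 on the opposite strand, so the same reservation on strand applies.

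Schwann cell-like cells fell into clusters that differed in these genes. Cluster 12, with the myelin genes Mbp, Mal and Pllp among its leading genes, had 4542 CPM of Cryab, against 2005 CPM in cluster 14, led by Fabp7, Cdh19 and Sfrp5. Cryab was higher in cluster 12 in 5 of 5 libraries with enough cells, 2.27 times in the pooled sums. Hspa1a and Dnajb1 ran the other way, at 422 and 148 CPM in cluster 12, against 949 and 311 CPM in cluster 14, each higher in cluster 14 in 5 of 5 libraries.

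Placement in a class was scored by size: at least 2 times the level of every other named class of at least 200 cells, and highest there in every library with at least 20 such cells. By that rule 3 of 10 genes were placed, against 17.3% of the 13168 genes reaching 10 CPM in some class. Hspb1 and Hsph1 were placed in smooth muscle-like cells, where 1.14% of genes were placed, although without library 4 Hsph1 lost its place and 2 genes were left. Cryab was placed in Schwann cell-like cells, where 2.95% of genes were placed. Hspa1a, Hspa1b, Hsp90aa1, Dnajb1, Dnaja1, Hspd1 and Hspe1 were placed in none.

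The spread between libraries was scored by the highest library over the lowest, for genes with at least 50 UMIs in each. Since the 10 genes were listed with the spread of Hspa1b known, the counts are a description and nothing is read from them. In smooth muscle-like cells 5 of 10 genes reached a ratio of 2, where 5.6% of 10359 genes did, and the median was 1.79 for the 10 genes and 1.33 for all genes. The 5 were Hspa1a, Hspa1b, Dnajb1, Dnaja1 and Hsph1. Without library 1, or without library 3, 3 of them remained, Hspa1a, Hspa1b and Dnajb1, so the counts for Dnaja1 and Hsph1 rest on those libraries. Without library 6, Hspa1a had a ratio of 1.89 and the other 4 remained. Hspa1b and Dnajb1 also reached a ratio of 3, as 1.29% of genes did, but without library 6 their ratios were 2.61 and 2.37. In endothelial cell-like cells 5 of 10 reached a ratio of 2 (4.41% of all genes), in macrophage-like cells 5 of 10 (7.3%), in fibroblast-like cells 4 of 10 (6.52%) and in lymphatic endothelial cell-like cells 4 of 9 tested (8.73%). Hspa1b and Hsph1 were among them in all 5 classes. In endothelial cell-like cells the others were Dnaja1, Hspd1 and Cryab, the last at a low level, 49.5 to 107 CPM, taken above as background. In fibroblast-like cells the count fell to 2 without library 4 (Hspa1a and Hsph1) and to 2 without library 5 (Hspa1b and Hsph1). Within single clusters with enough cells, Hsph1 reached a ratio of 2 in 6 of 6, Hspa1b in 5 of 6, and Hspa1a and Dnaja1 in 4 of 6. Dnajb1, Hspb1 and Cryab did so in 2 of 6 each, and Hsp90aa1, Hspd1 and Hspe1 in 1 of 6 each. The share of all genes was not counted for clusters within a class, so nothing is read from these counts.

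**Figure D4:**
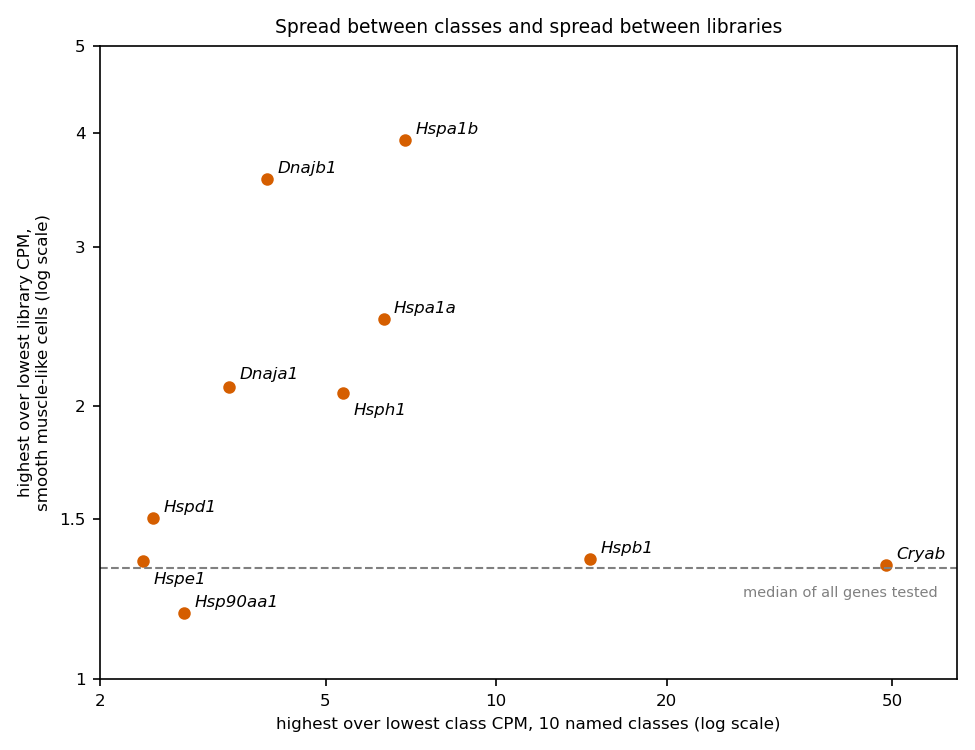
Each gene by its highest class over its lowest class (x axis, 10 named classes, log scale) and its highest library over its lowest in smooth muscle-like cells (y axis, log scale), with the median library ratio of all genes tested, 1.33, as a dashed line. Hspb1 and Cryab lie far to the right near that line, and Hspa1b (3.93) and Dnajb1 (3.56) lie highest.

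Several measures of the cells differed between the libraries too. In smooth muscle-like cells the median mitochondrial share was 4.5, 5.09, 6.34, 4.56, 6.01 and 5.81% in libraries 1 to 6, so the libraries lowest for Hspa1b and Hsph1 (1 and 4) were also lowest in this share. The median depth was 6025 UMIs in library 5 and at least 11236.5 UMIs in the other 5. Summed immediate early genes, which cells switch on within minutes of a stimulus, were highest in library 1 with 11643 CPM and lowest in library 2 with 7599 CPM, and library 6, highest for Hspa1b, had 9452 CPM. The part of the mitochondrial share, depth or immediate early genes in the chaperone levels was not tested.

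Other genes of the folding machinery in smooth muscle-like cells were read from lists by role. Of 76 genes with enough UMIs on the chaperone lists together, 9 reached a library ratio of 2, where 5.6% of all genes did. Single lists are short against that share, so their counts below describe the listed genes and not a family. The median ratio was 1.29 on these lists and 1.33 over all genes. Among HSP70 relatives 1 of 10 reached a ratio of 2, the little-expressed Hspa1l with 5.89, 5.49, 9.65, 6.14, 5.03 and 15.8 CPM in libraries 1 to 6. Hspa8, the constitutive HSP70, ranged from 1596 to 2116 CPM, a ratio of 1.35, and Hspa5, the HSP70 of the endoplasmic reticulum, had 738 CPM there and 1963 CPM in fibroblast-like cells. Hyou1, another chaperone of that compartment, had a ratio of 1.49.

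Among HSP90 relatives 0 of 3 genes reached a ratio of 2, which 5.6% of all genes did. Hsp90ab1, the constitutive cytosolic form, ranged from 3493 to 3829 CPM, Hsp90b1 of the endoplasmic reticulum had a ratio of 1.30, and the mitochondrial Trap1 had 1.16. Of 12 co-chaperones of HSP90, 3 reached a ratio of 2. Chordc1 had 60.6, 124, 151, 86.8, 104 and 123 CPM, lowest in library 1 and highest in library 3 as Hsph1 was. Fkbp5, a glucocorticoid-induced immunophilin, had 117, 113, 73.4, 149, 132 and 43.6 CPM. It was lowest in library 6 and next lowest in library 3, the 2 libraries in which Hspa1b was highest. Ahsa2 was the other, and Ptges3 and St13 had ratios of 1.26 and 1.51.

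Small heat shock proteins outside the 10 genes had 0 of 4 genes at a ratio of 2. Hspb7 came closest with 437, 422, 301, 479, 452 and 241 CPM, a ratio of 1.99, and libraries 6 and 3 were low, where Hspa1a and Hspa1b were high. Hspb7 was also placed in smooth muscle-like cells, at 374 CPM, with 158 CPM in pericyte-like cells next. Hspb6 had 194 CPM in smooth muscle-like and 99.5 CPM in pericyte-like cells, and Hspb8 varied little, with a ratio of 1.11.

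Of 12 J-domain genes 1 reached a ratio of 2: Dnajb4 had 220, 257, 363, 264, 261 and 494 CPM, highest in library 6. Dnajb2 had a ratio of 1.70, and Dnajc3 one of 1.18. Of 9 exchange factors and HSP70 partners, Bag3, a co-chaperone of HSP70 in the selective autophagy of damaged filaments, was the 1 at a ratio of 2, with 108, 148, 220, 114, 187 and 247 CPM. Its libraries ran in the order of Hspa1b, with library 6 highest, library 3 next and library 1 lowest. Bag1 and Bag2 had ratios of 1.16 and 1.53.

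The cytosolic chaperonin TRiC had 0 of 8 subunits at a ratio of 2, with a highest ratio of 1.30, in Cct7. Heat shock factors had 0 of 3, and Hsf1 itself, whose protein is regulated largely after translation, ranged from 26.6 to 34.2 CPM, a ratio of 1.29. Hsf2 and Hsbp1 had ratios of 1.15 and 1.11. Of 6 other heat-inducible genes 1 reached a ratio of 2, Dedd2 with 9.09, 6.79, 13.3, 7.25, 9.57 and 19.1 CPM, while the ubiquitin gene Ubb had a ratio of 1.28. Ier5 was placed in macrophage-like cells at 629 CPM.

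Genes of the unfolded protein response in the endoplasmic reticulum had 2 of 9 at a ratio of 2, and both were lowest in library 6. Manf had 229, 225, 178, 176, 181 and 110 CPM, and Sdf2l1 had 17.8, 21.7, 12.6, 13.9, 14.5 and 7.04 CPM. Calr had a ratio of 1.20. Immediate early genes had 2 of 18 at a ratio of 2, Atf3 and Socs3, with ratios of 2.29 and 2.10, while Fos and Jun had 1.65 and 1.70.

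**Figure D5:**
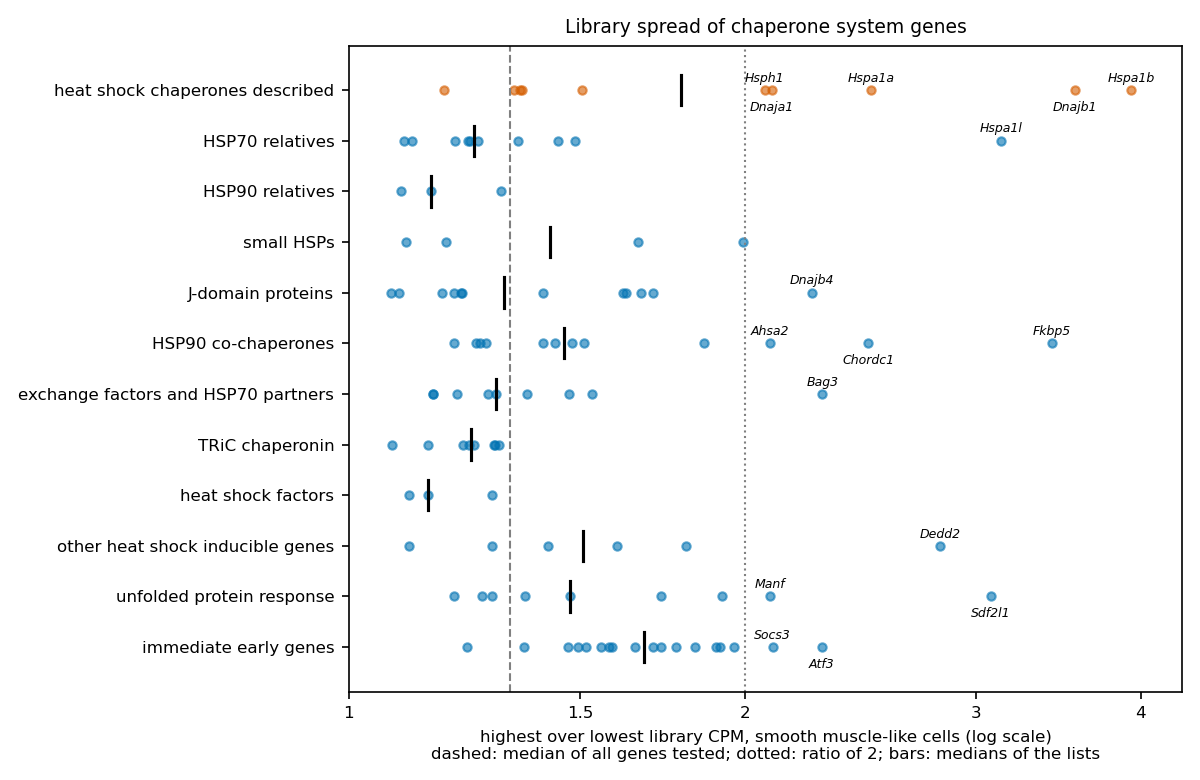
Highest over lowest library in smooth muscle-like cells (x axis, log scale) for the 10 genes and for each list of related genes, a point for each gene and a black bar for the median of its list. The dashed line is the median of all genes tested (1.33) and the dotted line a ratio of 2, past which genes are named.

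Heat shock elements were searched in the 250 bases before each annotated start, and a gene counts if any of its starts has a match. The 2-unit form, on either strand, was found before 7 of the 8 genes of the set with a window in the table, Dnajb1 being the exception, and before 14.5% of 27025 genes. With the third unit inverted again after 2 more free bases, the form was found before Hspd1 and Hspe1, 2 of 8, and before 0.514% of all genes. The windows of Hspd1 and Hspe1 overlap and share 1 run of units. Those of Hspa1a and Hspa1b have 247 of 250 bases in common, so neither pair counts as 2 separate matches. A match is a run of letters and not evidence of binding. The match of Dnaja1 begins 124 bases before 1 of its starts (chr4:40722218-40722467, plus strand). That window lies inside the annotated span of Dnaja1, and the windows before its other starts hold no match.
Dnaja1: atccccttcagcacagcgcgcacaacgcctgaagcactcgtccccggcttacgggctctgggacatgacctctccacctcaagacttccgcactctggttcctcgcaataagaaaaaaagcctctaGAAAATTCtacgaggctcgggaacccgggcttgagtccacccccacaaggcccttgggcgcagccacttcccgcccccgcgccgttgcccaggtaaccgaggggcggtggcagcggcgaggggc

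Genes with a profile like that of the HSP70 pair were ranked by Pearson correlation over 24 points, 4 classes in 6 libraries, among 3501 genes of at least 50 CPM. These points share libraries and classes, so the values are descriptions. For Hspa1a the 5 nearest were Actg1 (0.89), Ppp2r2a (0.88), Hspa1b (0.87), Hnrnpd (0.83) and Hbegf (0.81). For Hspa1b they were Hspa1a (0.87), Ipo7 (0.83), Ppp2r2a (0.81), Eif4g2 (0.79) and Actg1 (0.76). Each of the pair was thus among the 5 nearest of the other. Across cells thinned to the same depth, Hspa1a and Hspa1b had a correlation of 0.41 in smooth muscle-like cells (median of 6 libraries, 0.28 to 0.61), 0.52 in endothelial cell-like cells (0.45 to 0.59) and 0.24 in fibroblast-like cells. Hsp90aa1 and Hspb1 had 0.51 in smooth muscle-like cells (0.41 to 0.56), the highest median there of all pairs of the 10 genes. They had 0.10 in fibroblast-like and 0.28 in endothelial cell-like cells. The fibroblast-like and endothelial cell-like classes pool clusters that differ in these genes, and the part of that in the correlations was not tested.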

How the data were processed

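The deposited data are raw UMI counts, whole numbers in 1 matrix of 60871 barcodes. Per the file headers it was written by cellranger 6.1.2, while the submitters' processing notes name Cell Ranger 3.1.0, Seurat 3.1.1, bcl2fastq 5.01 and GRCm38. The sources used here do not say whether depth was equalised between libraries. Scaling of the counts by total UMIs makes each level relative to the rest of a class.

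Cells with at least 500 genes and at most 20% mitochondrial UMIs were kept, and doublets called by Scrublet per library were removed (scanpy 1.11.5). Clusters came from 2000 variable genes without mitochondrial, ribosomal protein and chaperone list genes, 30 principal components, 20 neighbours and Leiden clustering at resolution 0.5 (leidenalg 0.10.2). A cluster took the name of the best of 25 marker lists, scored by its markers' mean log2 fold over the median cluster (5 CPM added), and stayed unnamed with fewer than 3 markers, with more leading genes of another list, at low depth, or within 0.3 of a second list. Counts were summed per class and library as CPM. Placement and library ratios are rules of size, checked on simulated counts, and no p-value is given. Nothing says whether the samples came from separate animals.

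The 10 genes and all lists were chosen with earlier results of these data known. Named from each list are the 2 genes of highest CPM and up to 2 with the widest library ratio in smooth muscle-like cells, and for Hspa1a and Hspa1b the 5 genes of most similar profile; 1 gene that this rule names is not reported here. Ahsa2, the genes leading clusters and the cluster comparisons were chosen after their values were seen. The labels give no map from cells to samples, so the planned edgeR fit of genotypes was not run. Promoter windows are from RefSeq (GRCm38.p6), gene positions from the GRCm38 annotation.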

Additional observations from a re-analysis of the deposited data

How the results depend on the processing

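The library ratio and placement rules were repeated under other cell filters, doublets kept, Leiden resolution 1.0, classes given per cell from marker sums, CPM outside mitochondrial, ribosomal protein and haemoglobin genes, cells thinned to 2000 UMIs, other UMI and class size limits and other factors. Joining the cluster led by Actc1, Des and Pln to the smooth muscle class was chosen after seeing the data and gave the same 4 counts.

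Of 18 alternatives for placement, 16 gave a count within 1.5 times that reported. The number of genes placed in a class, 3, was 1 (Cryab) with a factor of 3 and 1 with classes per cell. The number of genes at a library ratio of 2 in smooth muscle-like cells, 5, was 2 with a factor of 3 and 3 with classes per cell, and lay between 3 and 5 with 1 library left out. In fibroblast-like cells, 4 became 7 with a factor of 1.5, 0 with a factor of 3 and 2 at resolution 1.0, and lay between 2 and 4 with 1 library left out. In endothelial cell-like cells, 5 became 9 with a factor of 1.5 and 1 with a factor of 3. A changed factor moves the counts by construction. The other causes were not tested.

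Between all the alternatives, leaving out libraries included, the ratio of Hspa1b in smooth muscle-like cells lay between 2.61 and 4.35, that of Dnajb1 between 2.37 and 3.82, that of Hspa1a between 1.89 and 2.58 and that of Hsp90aa1 between 1.11 and 1.20. No paired analysis was possible because no barcode could be tied to a sample, so the fits of genotypes with edgeR or DESeq2, and with a replicate block, were not run. Depth limits the classes of few cells, such as the 31 Schwann cell-like cells of library 3.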

Other observations

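Among the clusters that stayed unnamed, clusters 7 and 8 are set beside smooth muscle-like cells. Cluster 7, led by Actc1, Des, Pln and Notch3 (1703 cells), had 52877 CPM of smooth muscle markers, where smooth muscle-like cells had 53562 CPM. It had 5037 CPM of Hspb1, 938 CPM of Cryab and 488 CPM of Hspa1b, close to the smooth muscle-like levels of 5341, 866 and 537 CPM. Hsph1, Hsp90aa1 and Dnajb1 differed more, with 375, 1725 and 206 CPM against 562, 2061 and 143 CPM. Cluster 8 (1606 cells, median depth 1313 UMIs) had 25325 CPM of smooth muscle markers and 2919 CPM of Hspb1, both well below the smooth muscle-like values. It had 1228 CPM of Hspa1a and 746 CPM of Hspa1b, against 886 and 537 CPM in smooth muscle-like cells. Of both genes together, cluster 8 had less than smooth muscle-like cells in library 3, 778 against 1646 CPM, and in library 6, 1989 against 2287 CPM. Between libraries it varied 3.57 times for Hspa1a and 4.13 times for Hspa1b.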
